A study of Oryza sativa Japonica Group with 4 samples.

Results

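Kcr regions that lay next to H3K14cr without touching it numbered 778, of 10923 Kcr regions in all (7.12%). They were chosen by position and width alone. Each was at most 2000 bp wide, shared no base with any H3K14cr region, and had the nearest edge of an H3K14cr region at most 2000 bp away on the same chromosome. The other Kcr regions of at most 2000 bp were either isolated, with no H3K14cr region within 2000 bp (2991 regions, 27.38% of the list), or shared, overlapping H3K14cr by at least 1 bp (6126 regions, 56.08%). Another 1028 Kcr regions were wider than 2000 bp, and 36 of these also lay unshared within 2000 bp of H3K14cr.

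The material was leaf-rich tissue of 2-week-old rice seedlings of the japonica cultivar Nipponbare, sown in water after 72 h of germination, and the labels name no treatment or mutant. Chromatin was precipitated with a pan anti-Kcr antibody in 2 libraries and with an antibody to H3K14cr in 2 others. Each mark has 1 list of 3 columns (chromosome, start, end) for both of its libraries. The H3K14cr list has 18813 regions. With no read number, score or value per replicate at hand, the depth is unknown. Every result below is therefore a description of these lists without a test across samples, and the Wilson intervals (95%) cover counting error only, taking regions as independent. A region absent from a list cannot be told from one whose signal fell short of the unstated threshold.

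Lysine crotonylation is an acylation of histone tails that draws on crotonyl-CoA. In mammalian cells it is written by acetyltransferases such as p300, removed by histone deacetylases and sirtuins, read by YEATS and PHD finger domains, and found at active promoters and enhancers. A pan antibody is meant to bind crotonyl-lysine whatever residue carries it, whereas the H3K14cr antibody is directed at 1 lysine in the tail of histone H3. How evenly the pan antibody binds at different residues is not known here. A region found with the pan antibody beside, but not over, H3K14cr is thus a place where the lists part company within a short stretch of chromatin. Positions are given as deposited, in base pairs, on a genome build that none of the sources used here names. Genes and sequences under the regions were therefore not analysed here.

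These Kcr regions were about as wide as isolated ones and narrower than shared ones. Their median width was 1099 bp (quartiles 957.2 and 1277.8 bp, range 355 to 1985 bp). Isolated regions had a median of 1082 bp (949 to 1271.5 bp) and shared regions of at most 2000 bp a median of 1221 bp (1052 to 1466 bp). The width limit applied alike to all 3 classes. The median exceeded that of isolated regions on 8 of 12 chromosomes. Together the 778 regions covered 888.3 kb, or 6.06% of the Kcr bases. The widest lay on chromosome 7 at 2546063 to 2548048 (1985 bp), where H3K14cr began 766 bp beyond its upper end. The next widest were at 24634669 to 24636643 on the same chromosome (1974 bp) and at 2702956 to 2704900 on chromosome 1 (1944 bp). Regions of the same 1944 bp lay at 6673628 to 6675572 on chromosome 2 and at 7405410 to 7407354 on chromosome 7. The narrowest lay on chromosome 12 at 20928178 to 20928533 (355 bp) and at 20472343 to 20472771 (428 bp), and on chromosome 4 at 30689376 to 30689837 (461 bp). Just outside the width limit were unshared regions of 2032 bp on chromosomes 1 and 3, at 7174976 to 7177008 and 36380753 to 36382785, and 1 of 2053 bp on chromosome 8, at 19778272 to 19780325.

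The gaps between Kcr and H3K14cr were spread over the whole range from 9 to 1998 bp. Their median was 1020 bp and their quartiles were 472.5 and 1482 bp. Gaps of up to 500 bp were found at 204 regions, gaps of 500 to 1000 bp at 179, gaps of 1000 to 1500 bp at 209 and gaps of 1500 to 2000 bp at 186. In bins of 100 bp the number of regions ranged from 22 to 54, around a mean of 38.9. The smallest gap was 9 bp, on chromosome 3, where Kcr at 17442515 to 17443280 followed H3K14cr at 17441494 to 17442506. On chromosome 4, Kcr at 29195401 to 29197166 lay 10 bp above a 3215 bp H3K14cr region. On chromosome 2, Kcr at 21559963 to 21561061 lay 13 bp below one of 2575 bp. The same gap of 13 bp was found on chromosome 4, where Kcr at 35085521 to 35086634 lay below an H3K14cr region of 3743 bp. At these places the lists all but abutted.

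At the limit of 2000 bp the series of gaps went on without a break. Just inside lay regions at 25926095 to 25927128 on chromosome 1 and at 35786 to 37006 on chromosome 8, each with a gap of 1998 bp, and at 25270983 to 25272192 on chromosome 5, with 1993 bp. Just outside lay regions at 7322217 to 7323041 on chromosome 8 (2001 bp), at 289993 to 291046 on chromosome 5 (2002 bp) and at 16470889 to 16471765 on chromosome 9 (2003 bp). The limit is therefore a convention of the choice and not a border in the data.

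The number of Kcr regions beside H3K14cr was close to the number that the free room beside H3K14cr gives. Of 3769 unshared Kcr regions of at most 2000 bp, 778 lay within 2000 bp of H3K14cr, or 20.64% (19.38 to 21.96%). The room was computed exactly from the stretches between neighbouring H3K14cr regions, as the share of all positions open to a region of the same width that lie within 2000 bp of an H3K14cr edge. For the 3760 regions that lay between 2 H3K14cr regions this gave 20.97% over all stretches, against an observed 20.66% (19.40 to 21.99%), or 788.6 against 777 regions. When each region was given only the stretch in which it lay, the room came to 21.76%, or 818.2 regions. By neither reckoning were these regions more frequent than the room. The agreement covers position only and takes all free places within the stretches as equal.

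Within the 2000 bp, the count per 250 bp ran between 0.79 and 1.13 times the room over all stretches. The low values were at 250 to 500 bp (85 regions against 104.4) and at 500 to 750 bp (81 against 102.6), and the nearest bin held 118 against 106.4. From 2000 to 4000 bp there were 678 regions against 604.3, with single bins at 0.97 to 1.39 times the room. Between 4000 and 5750 bp each bin lay above the room, at 1.17 to 1.50 times. Against the room over all stretches, the excess of unshared Kcr regions thus lay farther out than the regions described here. The room in the stretch where each region lay was not computed by bin. Whether the excess would remain against it was not tested.

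**Figure D1:**
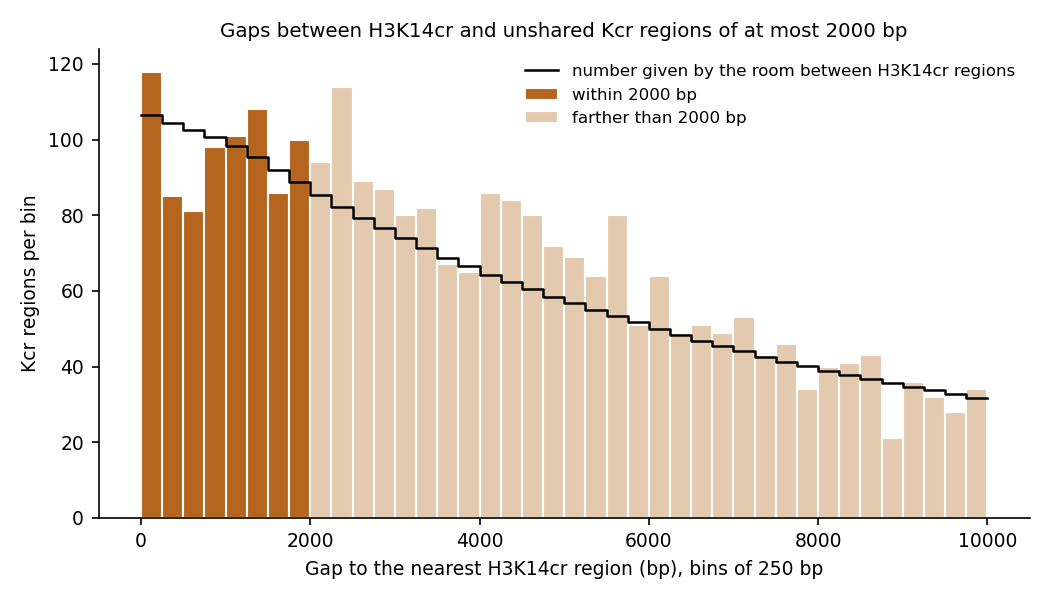
Number of unshared Kcr regions of at most 2000 bp (vertical axis) by the gap to the nearest H3K14cr region in bp (horizontal axis, bins of 250 bp); dark bars are the regions within 2000 bp, pale bars those farther away, and the black line is the number given by the room between H3K14cr regions. Dark bars lie between 81 and 118 regions per bin around a line that falls from 106.4 to 88.7.

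The H3K14cr neighbours were mostly free of Kcr. The nearest H3K14cr region overlapped another Kcr region at 101 of the 778 places, or 12.98% (10.80 to 15.53%), and was free of Kcr at the other 677, or 87.02% (84.47 to 89.20%). In the whole H3K14cr list 37.11% (36.42 to 37.80%) of regions overlapped Kcr, and among the nearest H3K14cr regions of isolated Kcr regions it was 36.41% (34.70 to 38.15%). The share was below that of the H3K14cr list on 12 of 12 chromosomes and below that of isolated regions on 12 of 12.

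The spacing of the regions within each list is given beside this share. Kcr regions seldom lay near each other, since 2.31% of the gaps between neighbouring Kcr regions were 2000 bp or less, against 6.87% for H3K14cr. A comparison at equal distance was therefore made with shared Kcr regions that had a second, separate H3K14cr region within 2000 bp (661 regions, with a median gap of 943 bp to it). That second region overlapped another Kcr region in 156 cases, or 23.60% (20.52 to 26.98%). The value at the 778 regions, 12.98%, was lower, and it was lower on 12 of 12 chromosomes. At the 778 regions the share was 12.75% (8.85 to 18.02%) for gaps of up to 500 bp, 11.17% (7.35 to 16.63%) for 500 to 1000 bp and 13.92% (10.86 to 17.69%) for 1000 to 2000 bp. It was 26.07% (22.91 to 29.50%) for isolated regions at 2000 to 4000 bp and 40.92% (37.88 to 44.04%) at 4000 to 8000 bp. For shared Kcr regions it also rose with distance, from 23.68% within 500 bp to 35.11% at 2000 to 4000 bp and 44.21% at 4000 to 8000 bp. The lower share near a Kcr region was thus common to both classes, and it was lowest beside Kcr regions that touched no H3K14cr. How far the spacing of the Kcr list accounts for it was not tested.

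The neighbours were also wide. Their median width was 1979 bp (quartiles 1368 and 2754 bp, range 627 to 6759 bp). The H3K14cr list had a median of 1621 bp (1202 to 2297 bp). The median for the neighbours of isolated Kcr regions was 1680 bp, and that for the second H3K14cr region beside shared Kcr regions was 1615 bp. H3K14cr regions wider than 2000 bp made up 49.23% (45.73 to 52.74%) of the neighbours, 33.85% (33.18 to 34.53%) of the list, 36.14% (34.44 to 37.88%) of the neighbours of isolated regions and 29.50% (26.15 to 33.09%) of the second regions beside shared Kcr. The median exceeded that of the list on 12 of 12 chromosomes. It exceeded that of the neighbours of isolated regions on 11 of 12, the exception being chromosome 9 (1710 against 1749 bp). It exceeded that of the second regions on 11 of 12, the exception being chromosome 12 (1680 against 1831 bp).

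The width of the neighbours was not only that of H3K14cr regions without Kcr. In the list as a whole, Kcr-free H3K14cr regions had a median width of 1701 bp, and 37.24% (36.37 to 38.11%) of them were wider than 2000 bp. Among the 677 Kcr-free neighbours the median was 2069 bp, and 51.70% (47.94 to 55.44%) were wider than 2000 bp. The Kcr-free second regions beside shared Kcr had a median of 1693 bp and 33.07% (29.11 to 37.29%) over 2000 bp. The 101 neighbours with Kcr were narrower, with a median of 1588 bp. Large width extended past the limit of the choice: for isolated regions at 2000 to 4000 bp 46.39% (42.67 to 50.15%) of neighbours were wider than 2000 bp, and at 4000 to 8000 bp 34.36% (31.44 to 37.40%), close to the list.

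**Figure D2:**
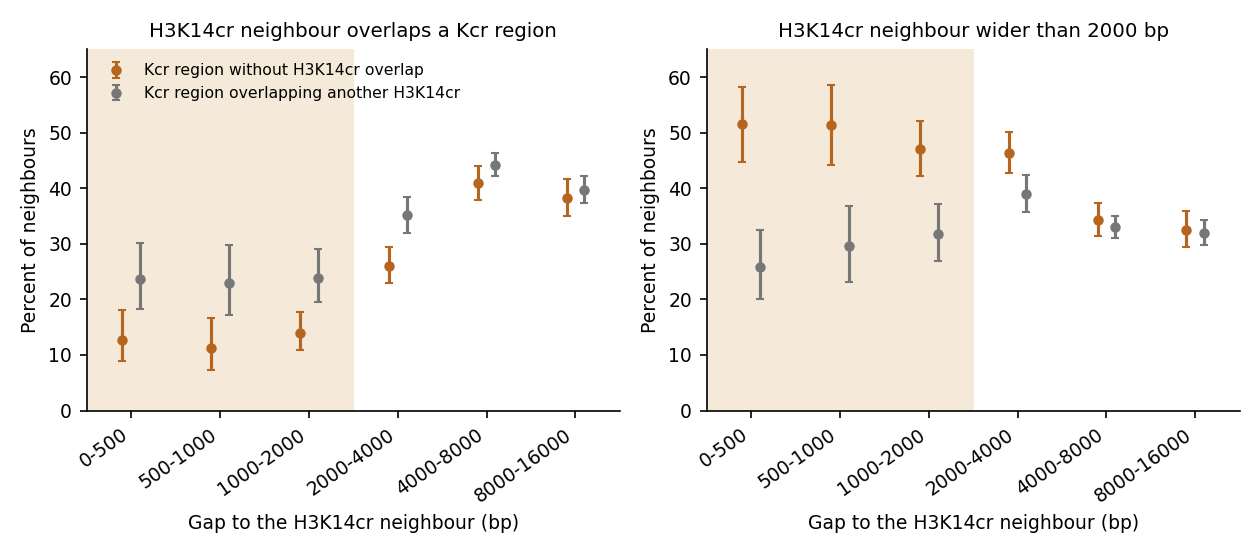
Percent of nearest H3K14cr regions that overlap a Kcr region (left) and that are wider than 2000 bp (right), by the gap in bp between the Kcr region and that neighbour; brown points are Kcr regions of at most 2000 bp without H3K14cr overlap, grey points those that overlap a different H3K14cr region, bars are 95% Wilson intervals and the shaded part is the range up to 2000 bp. In the shaded part brown points lie at 11.17 to 13.92% (left) and 47.09 to 51.47% (right), grey points at 22.89 to 23.93% and 25.79 to 31.80%; beyond 4000 bp they lie close together.

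Seen from the H3K14cr list, the share with a Kcr region of this kind beside it was larger for wide regions than for narrow ones. Of 11832 Kcr-free H3K14cr regions, 678 had one within 2000 bp on either side, or 5.73% (5.33 to 6.16%). Of the 6981 H3K14cr regions with Kcr, 103 had one, or 1.48% (1.22 to 1.79%). An H3K14cr region with Kcr can count here only where a further Kcr region lies near the one it overlaps. Of the gaps between neighbouring Kcr regions, 2.31% were 2000 bp or less. How far this spacing accounts for the lower share was not tested. The Kcr-free regions were ranked by width and cut into 5 classes of equal size. In the narrowest class (494 to 1179 bp) 3.89% (3.18 to 4.74%) had such a Kcr region, and in the next 4.35% (3.60 to 5.25%) did. The following classes reached 5.07% (4.26 to 6.03%) and 6.93% (5.98 to 8.03%), and the widest class (2616 to 7677 bp) reached 8.41% (7.36 to 9.59%). The intervals of the narrowest and the widest class did not overlap, whereas those of the narrowest and the next did. The room beside an H3K14cr edge does not depend on the width of the region itself, and the room beyond its edges was not compared between classes.

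**Figure D3:**
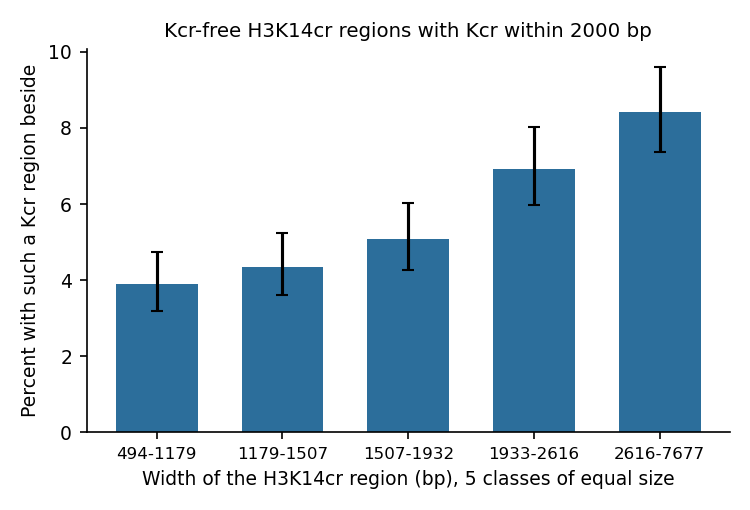
Percent of Kcr-free H3K14cr regions with an unshared Kcr region of at most 2000 bp within 2000 bp (vertical axis) in 5 classes of H3K14cr width in bp (horizontal axis); bars are shares and whiskers 95% Wilson intervals. The share rises from 3.89% to 8.41% from the narrowest to the widest class.

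Most of the pairs were lopsided, with a narrow Kcr region beside a wider H3K14cr region. The Kcr region was the narrower at 686 of 778 places, or 88.17% (85.72 to 90.26%). The width limit, which applied to Kcr alone, favours this. Under the same limit the share was 83.18% (81.80 to 84.48%) for isolated Kcr regions and 72.62% (69.09 to 75.88%) for shared ones with a second H3K14cr region within 2000 bp. From the outer edge of Kcr to the outer edge of H3K14cr the pair spanned a median of 4187 bp (quartiles 3448.5 and 5043.5 bp), and 479 pairs, or 61.57% (58.10 to 64.92%), spanned 3000 to 5000 bp. The width of the Kcr region went weakly with that of its neighbour, since the median neighbour was 1828 bp for the narrowest of 4 equal classes of the Kcr regions (355 to 957 bp) and 2138 bp for the widest (1278 to 1985 bp). The median gap was 993 and 1034 bp in these classes, and the share of neighbours with Kcr was 14.87% (10.56 to 20.54%) and 11.28% (7.57 to 16.49%).

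**Figure D4:**
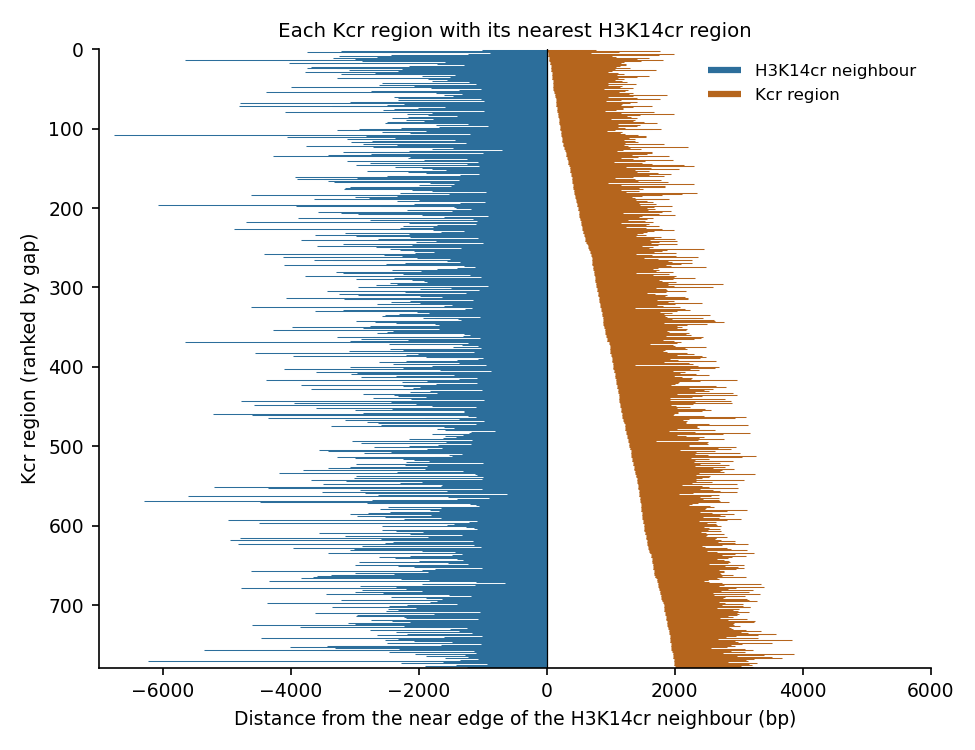
Each of the 778 Kcr regions (brown) with its nearest H3K14cr region (blue), one pair per row ranked by gap; the horizontal axis is the distance in bp from the near edge of the H3K14cr region, which extends to the left, so pairs with H3K14cr on either side are drawn alike. The white wedge is the gap, which grows evenly from 9 to 1998 bp, while the widths of the Kcr regions change little down the rows.

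H3K14cr flanked most of these regions on 1 side only. The gap to H3K14cr on the other side had a median of 12536 bp (quartiles 5940 and 22585 bp; 777 regions, 1 having no further H3K14cr region on its chromosome). In the H3K14cr list as a whole, the gap between neighbouring regions had a median of 11583 bp (quartiles 5634 and 23191 bp). A distant second H3K14cr region was thus not particular to these places. H3K14cr lay within 2000 bp on both sides of 17 regions, or 2.19% (1.37 to 3.47%), on 11 chromosomes. The closest such arrangement was on chromosome 3, where Kcr at 2264536 to 2265765 was separated by 113 and 140 bp from H3K14cr at 2262692 to 2264423 and at 2265905 to 2266935. The next was on chromosome 1, where Kcr at 25352074 to 25353232 had gaps of 343 and 232 bp to H3K14cr at 25350555 to 25351731, which also overlapped Kcr, and at 25353464 to 25354546. On chromosome 6, Kcr at 2518131 to 2518970 had gaps of 258 and 343 bp to H3K14cr at 2515528 to 2517873 and at 2519313 to 2521218. In 14 of the 17 cases both H3K14cr regions were free of Kcr. At all 778 regions the nearest H3K14cr region was free of Kcr in 87.02%, so this was not particular to the 17.

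The reverse arrangement, an H3K14cr region with such a Kcr region on each side, each within 2000 bp, was found 14 times. All 14 were free of Kcr, as were 678 of the 781 H3K14cr regions with such a Kcr region on either side. The widths of the 14 H3K14cr regions ranged from 1109 to 4621 bp with a median of 2407 bp. The widest lay on chromosome 3 at 29168862 to 29173483, with gaps of 842 and 1674 bp. In 13 of the 14 cases the H3K14cr region was the nearest one to both Kcr regions, so that the 778 regions had 765 distinct nearest H3K14cr regions.

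Another Kcr region lay within 2000 bp of 84 of the 778 regions, or 10.80% (8.81 to 13.17%), against 2.54% (2.03 to 3.17%) of isolated regions and 5.01% (4.49 to 5.59%) of shared ones. The share was above that of isolated regions on 12 of 12 chromosomes. Of the 84 nearby Kcr regions, 73 were shared regions of at most 2000 bp, 7 were wider shared regions and 4 were isolated, and 0 belonged to the 778. In 78 of the 84 cases the nearby Kcr region overlapped the very H3K14cr region that was the neighbour. These cases form most of the 101 places whose neighbour had Kcr. At those 101 places the gap to the next Kcr region on that side had a median of 1318 bp (59 to 4753 bp), and at 22 of them that Kcr region reached past the edge of the H3K14cr region towards its partner. The comparison is limited by the rule, since Kcr regions that overlap H3K14cr are near H3K14cr by construction. Isolated regions by definition have no H3K14cr within 2000 bp, which leaves little place for shared Kcr regions near them. The direction on 12 of 12 chromosomes therefore adds little to the contrast with isolated regions. Among the 661 shared regions with a second H3K14cr region within 2000 bp, 23.15% (20.09 to 26.51%) had another Kcr region within 2000 bp.

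The neighbour lay on the lower-coordinate side at 421 places and on the higher-coordinate side at 357, or 45.89% (42.41 to 49.40%) higher. The lower side was in excess on 9 of 12 chromosomes. For isolated regions the nearest H3K14cr region was on the higher side in 49.72% (47.93 to 51.51%), and for the second H3K14cr region of shared ones in 49.32% (45.52 to 53.12%). The interval of the 778 regions lay below an even split, and it overlapped the intervals of these classes. Whether the imbalance differed from theirs was not tested.

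Along the chromosomes the number of these regions rose with the density of H3K14cr, from a mean of 1.23 per Mb in the windows poorest in H3K14cr to 2.78 in the richest. In 367 full windows of 1 Mb there was a median of 2 such regions per window (range 0 to 8), with none in 66 windows and 5 or more in 36. The windows with the most were 30000001 to 31000000 on chromosome 4 (8 regions among 38 Kcr and 65 H3K14cr regions), 27000001 to 28000000 on chromosome 8 (8 among 49 and 55) and 30000001 to 31000000 on chromosome 1 (7 among 63 and 74). The window at 1000001 to 2000000 on chromosome 12 also held 7 (among 50 and 64). The windows were ranked by their number of H3K14cr regions and cut into 4 classes. In the class poorest in H3K14cr (15 to 42 regions per window) 17.55% (14.80 to 20.67%) of unshared Kcr regions of at most 2000 bp lay beside H3K14cr, where the room in their own stretches was 16.65%. In the middle classes the shares were 19.86% (room 18.96%) and 20.97% (room 21.75%). In the richest class (57 to 85 regions) the share was 22.22% (19.92 to 24.71%), where the room was 26.59%. The share thus rose less than the room, and in the richest class the room lay above the interval.

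The full windows at the ends of the chromosomes held 3.54 ± 1.93 of these regions per Mb (SD, n = 24 windows) and the remaining windows 1.93 ± 1.56 (SD, n = 343 windows), a ratio of 1.83 (Wilson-based interval 1.46 to 2.30). The end windows were the first and the last full window of each chromosome. The shorter stretches above the last full windows, which held 30 of the 778 regions, were left out. The ratio was 1.49 for all Kcr regions and 1.67 for unshared regions of at most 2000 bp. Of the latter, 22.31% (18.42 to 26.75%) lay beside H3K14cr in the end windows and 20.28% (18.94 to 21.69%) elsewhere, and these intervals overlapped. The density in the end windows was therefore shared with other unshared Kcr regions.

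Chromosomes differed in how many of their unshared Kcr regions lay beside H3K14cr. The share was highest on chromosome 4, with 87 of 309 regions or 28.16% (23.43 to 33.41%), where the room was 20.8%. It was lowest on chromosome 7, with 46 of 334 or 13.77% (10.49 to 17.88%), where the room was 18.8%. On chromosome 2 it was 16.36% (13.15 to 20.16%) with a room of 23.2%, and on chromosome 3 it was 20.30% (16.89 to 24.20%) with a room of 24.3%. On the other 8 chromosomes the room lay inside the interval. The room by chromosome was not that in own stretches, as given for the windows above, so the values are not to be set side by side. The share exceeded the room on 7 of 12 chromosomes. The median gap ranged from 866 bp on chromosome 2 to 1190 bp on chromosome 11, and the median Kcr width from 966 bp on chromosome 11 to 1203 bp on chromosome 3.

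**Figure D5:**
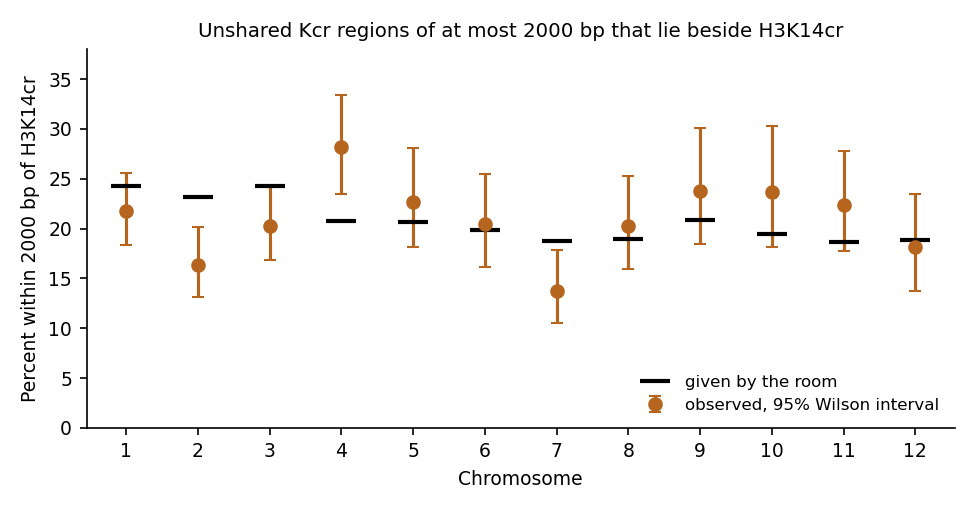
Percent of unshared Kcr regions of at most 2000 bp that lie within 2000 bp of H3K14cr (vertical axis) on each chromosome (horizontal axis); points are observed shares with 95% Wilson intervals and black dashes the share given by the room between H3K14cr regions. Chromosome 4 lies above its dash, and chromosomes 2, 3 and 7 lie below theirs with intervals that leave it out.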

How the data were processed

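Chromatin immunoprecipitation followed by sequencing was done on 4 libraries, 2 per antibody, with Bowtie as the aligner per the submitters' processing notes. Its version, the peak caller and threshold, any pooling of replicates and the role of the mock precipitation (normal rabbit serum, per the labels' protocols; not analysed here) are stated by none of the sources used here. The authors deposited 1 list of region positions per mark, with no counts, scores or p-values. Groups came from the antibody label.

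From these lists, width was taken as end minus start and a gap as the start of one region minus the end of the other. The span of a chromosome ended at the last region in either list. Shares carry 95% Wilson intervals, and medians, where compared between settings, exact binomial intervals. The room was computed by enumeration of positions, without random draws. The code (Python 3.11.15, numpy 2.4.6, pandas 2.3.3, scipy 1.17.1) was tested on simulated intervals against brute force.

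The regions named were fixed by rule: 3 each with the smallest and largest gap, just outside either limit, widest, narrowest, flanked on both sides by the shortest gaps, and the 3 fullest windows. Ties were broken by chromosome and then start. Those tied for the smallest gaps, the greatest widths and the fullest windows are also given. The widest of the 14 H3K14cr regions flanked on each side was chosen after its values were seen. The members, comparisons and rules were chosen with earlier results of these data known. The comparison with shared regions near a second H3K14cr region, the classes by width and density and the arrangements were added after the lists had been seen. The gene table at hand belongs to another assembly and was not used here.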

Additional observations from a re-analysis of the deposited data

How the results depend on the processing

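No paired analysis was possible because the 2 replicates of a mark share a single list, so no replicate could be left out either. Of 79 values (10 results under 8 settings, the density at chromosome ends not being defined without the ends), 63 stayed within the interval of the reported value, or within 1.5 times for the number of regions. The other 16 moved with the gap limit, the width limit of 1500 bp or the shortened H3K14cr list. They include traits of the neighbours, which thus depend on the gap limit. With a gap limit of 1000 bp there were 383 regions, 10.16% of the unshared, with a median gap of 465 bp and H3K14cr in reach on both sides in 0.78%. With 5000 bp there were 1779 regions, 47.20% of the unshared, with a median gap of 2302 bp, H3K14cr on both sides in 13.66%, a neighbour with Kcr in 23.33%, a median neighbour of 1883 bp and another Kcr region within 2000 bp in 5.62%. With a width limit of 1500 bp the median width was 1057 bp. With only the wider 50% of the H3K14cr list, where a region may overlap one of the H3K14cr regions left out, 9.63% of the unshared regions lay beside H3K14cr, 0.95% had it on both sides, the median neighbour was 2368 bp and the median Kcr width 1139.5 bp. The share of neighbours with Kcr was 11.72 to 13.64% under the settings other than 5000 bp. The share of neighbours on the higher side ranged from 45.72 to 48.90%, and its interval took in 50% with gap limits of 1000 and 5000 bp and without the outer 2 Mb. The unknown depth limits any statement on regions found with 1 antibody.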
